A study of Mus musculus with 2 samples.

Results

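Alcam encodes the activated leukocyte cell adhesion molecule (CD166), a membrane protein of the immunoglobulin superfamily. Its loops were collected from maps of chromatin contacts in mouse cerebral cortex after experimental stroke. A chromatin loop was included when an anchor lay in the gene or within 10 kb of it, which gave 9 of 15592 loops in the MCAO list and 15 of 14779 loops in the sham list, 24 in all. The gene was chosen by its number of loops, which earlier results of these data had shown to be lower in MCAO than in sham. Its loop numbers and PETs are therefore a description, and no test was made on them. A paired-end tag (PET) is a read pair that joins the anchors of a loop, and each listed loop comes with its number of PETs.

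Hi-C ligates and sequences DNA that is in contact inside the nucleus, and it was made from the cortex of the operated side. In MCAO mice a filament had closed the middle cerebral artery for 1 h and the tissue was taken after 6 h of reperfusion. Sham mice had the same surgery without advancing the filament and were killed after the same 6 h. The labels name 3 cortices per group but 1 loop list per group was analysed, and the labels give neither strain nor age nor sex. No difference below has a replicate check, and all 95% intervals cover counting error only. Contacts come from all cells of the tissue together, so a change in the cells present and a change within cells cannot be told apart, and a Hi-C loop list holds no expression values with which to check the tissue against its marker genes.

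ALCAM binds ALCAM on neighbouring cells and also the lymphocyte receptor CD6. In the nervous system it is known for the growth and bundling of axons, and on brain endothelium for the adhesion and passage of leukocytes. Its gene can be brought near distant DNA by loops, whose anchors often hold promoters, enhancers or binding sites of the insulator protein CTCF.

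On mm10, Alcam (gene ID 11658) lies on chromosome 16 from 52248996 to 52453081, a length of 204 kb on the minus strand. The transcription start is thus at the higher coordinate, and the 3′ end lies 40.9 kb from Cblb, a ubiquitin ligase gene known for restraining T cell activation. Beyond the transcription start the next protein-coding gene, Zpld1, which encodes a zona pellucida-like domain protein, begins 2.77 Mb away. Within 3 Mb on either side there were 7 other protein-coding genes.

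The promoter of Alcam is shown because anchors over it carried most of the difference between the lists. It spans chr16:52453032-52453331 (minus strand, GRCm38.p6, RefSeq), from 250 bases before the start to 50 after it. Anchors of 5 MCAO loops and 10 sham loops covered it. Capitals mark the GC box GGGCGG on either strand.
Alcam promoter: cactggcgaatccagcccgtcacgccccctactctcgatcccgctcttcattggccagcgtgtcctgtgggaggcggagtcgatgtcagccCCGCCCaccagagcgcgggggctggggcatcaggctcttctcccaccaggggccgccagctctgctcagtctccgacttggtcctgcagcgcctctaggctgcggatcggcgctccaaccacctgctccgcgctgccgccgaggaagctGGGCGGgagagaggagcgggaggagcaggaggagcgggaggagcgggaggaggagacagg
The window was 69.7% G and C, against a median of 52.7% over 32851 promoters. It held 2 GC boxes, a motif found on either strand in 35.7% of these promoters. The first lies at bases 92 to 97 on the opposite strand and the second at bases 241 to 246. It held no match on either strand to CAGNNGGCG, a part of the CTCF core motif (found in 8.23% of promoters), or to ACGTG, the core of the hypoxia response element (found in 19.6%). The 2 matches did not overlap.

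**Figure D1:**
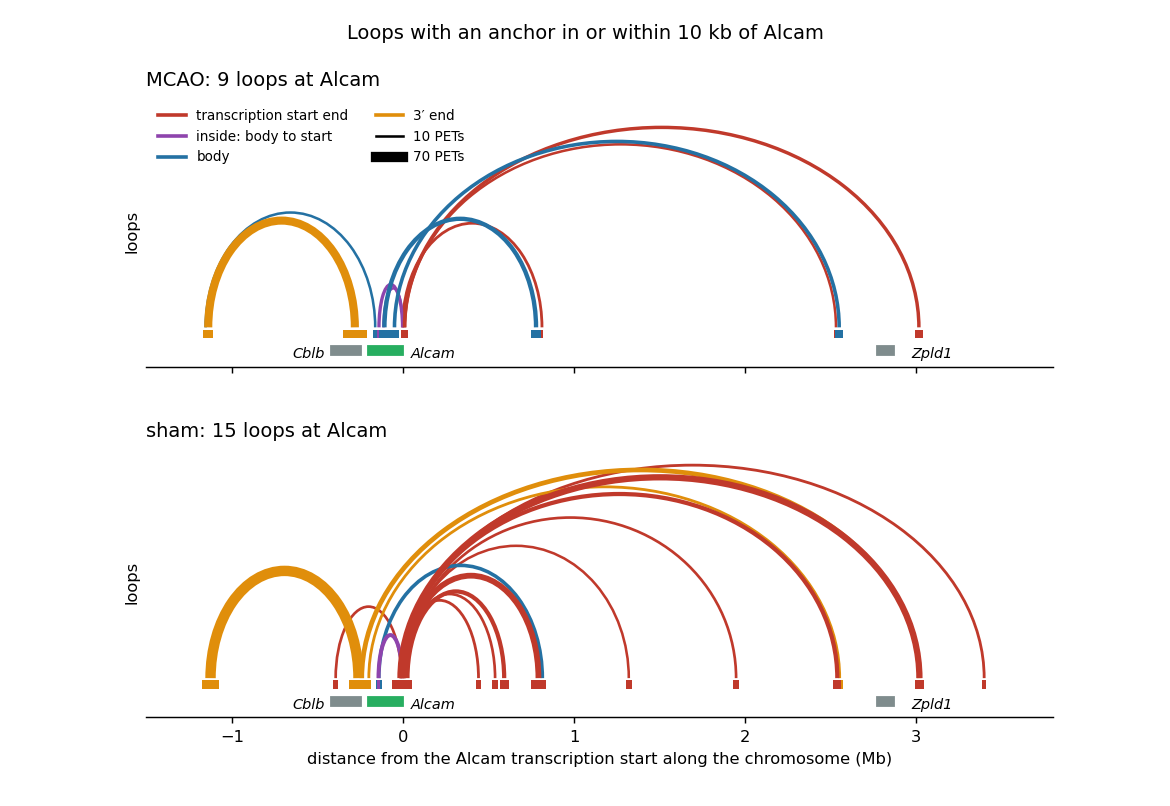
Loops at Alcam in the MCAO library (top) and the sham library (bottom). The x axis is the distance along the chromosome from the transcription start in Mb, arcs join anchor midpoints with a line width that grows with the number of PETs, blocks below are anchors to scale, and colours give the place of the loop at the gene. From the start end, 3 arcs leave the gene in MCAO and 10 in sham.

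At the transcription start end, 5 loops were listed in MCAO and 11 in sham, counting those that stay inside the gene. Inside the body the order turned, with 5 MCAO loops and 2 sham loops. At the 3′ end there was 1 loop in MCAO and there were 3 in sham. A loop from the body to the start counts in both places. With each loop counted once, MCAO had 3 outward loops from the start end, 2 loops inside the gene from the body to the start, 3 outward loops from the body and 1 from the 3′ end. Sham had 10 outward loops from the start end, 1 loop inside the gene, 1 outward loop from the body and 3 from the 3′ end. A difference of -6 loops or lower, MCAO minus sham, was seen for 0.415% of 15418 protein-coding genes with a loop within 10 kb, and one of 6 or higher for 0.363%. At the transcription start end the shares were 0.029% and 0.0483% of 10357 genes, with 3 genes at -6 or lower and Alcam among them. Alcam was chosen for this difference, so nothing is read from these shares.

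Over all Alcam loops the ratio of loop numbers, MCAO over sham, was 0.600. The loops held 170 PETs in MCAO and 336 in sham, or 4.19 (3.59 to 4.87) and 9.61 (8.61 to 10.7) per 1000000 PETs of the library. The ratio of these sums at equal depth was 0.436. The MCAO library held 40550536 PETs and the sham library 34974213. A loop had 18.9 PETs on average in MCAO and 22.4 in sham, and the anchors covered 568 kb in MCAO and 825 kb in sham. Each list was called on its own, so a sham loop that MCAO does not list enters the sum with no PET although it may hold some. Had each of the 8 sham loops without a counterpart held 9 PETs in MCAO, 1 below the minimum of the lists, and with a counterpart of 14 PETs outside the window, MCAO would have had 256 PETs and the ratio would be 0.657. A ratio of sums is therefore given without an interval. No 2 loops of a list had both anchors overlapping, so no PET was counted in 2 of the loops.

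The outward loops of the start end carried the largest part of the gap in PETs. They held 39 PETs in MCAO and 187 in sham, a ratio at equal depth of 0.180. Of the sham PETs, 90 were in 7 loops that MCAO does not list. The 3 loops found in both lists had 39 PETs in MCAO and 97 in sham, a ratio of 0.347, and with 9 PETs for each unlisted loop the ratio would be 0.470. The outward loops of the body went the other way, with 52 PETs in MCAO and 18 in sham, in 3 loops and 1 loop, a ratio of 2.49. The division between body and start depended on where an anchor ended. A body loop of MCAO with 18 PETs has its gene anchor at 52379241 to 52428860, which stops short of the 10 kb window at the start. Its counterpart in sham, with 23 PETs, has an anchor at 52413478 to 52472505 that holds the start. Another body loop of MCAO, with 10 PETs, had as its counterpart a sham loop with 71 PETs placed at the 3′ end. The sole pair of counterparts placed in the body in both lists had 24 PETs in MCAO and 18 in sham, a ratio of 1.15. Body and start together had 91 PETs in outward loops in MCAO and 205 in sham, a ratio of 0.383.

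**Figure D2:**
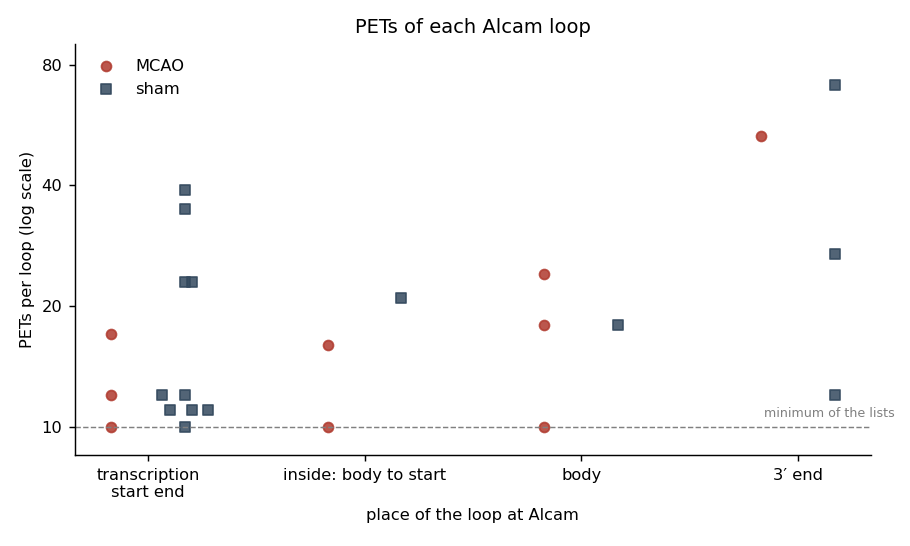
PETs of each Alcam loop (y axis, log scale) by place at the gene, with MCAO (circles) left of sham (squares) and the minimum of 10 PETs as a dashed line. The start end holds 3 MCAO loops with 10 to 17 PETs and 10 sham loops with 10 to 39 PETs.

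Many of these loops lay near the minimum of 10 PETs at which both lists begin. At most 12 PETs were found in 4 of 9 Alcam loops in MCAO and in 7 of 15 in sham, against 46.9% and 51.7% of all loops in the lists. A loop that is not listed may thus lie just below this minimum.

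Long loops were frequent at Alcam. Over 2 Mb were spanned by 3 of 9 Alcam loops in MCAO and by 5 of 15 in sham, against 1.28% of all MCAO loops and 1.66% of all sham loops. The longest reached 3.01 Mb in MCAO and 3.41 Mb in sham. The median span was 886 kb in MCAO and 956 kb in sham, against 309 kb and 377 kb over the lists. These shares rest on a few loops that share anchors.

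Outside the gene the partner anchors formed 11 loci, of which 4 were reached in MCAO and all 11 in sham. No locus was reached in MCAO alone. The 7 loci reached in sham alone had 1 loop each, with 10 to 23 PETs and 90 PETs in total, and 6 of these loops had 12 PETs or fewer. Loops in a single list were common, since 25.6% of all sham loops and 24.9% of all MCAO loops had a counterpart in the other list. Of the 11 loci, 9 had no protein-coding gene within 10 kb. Most of the 11 loci lie in the 2.77 Mb between Alcam and Zpld1, which hold no protein-coding gene. The share of all loop anchors without such a gene was not computed, so this count only describes the place.

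The locus nearest in the desert that both lists reached lies at 53201167 to 53289686, 0.792 Mb beyond the transcription start. Its loops held 36 PETs in MCAO and 53 in sham. From the start end, the loop to it had 12 PETs in MCAO and 35 in sham, the lowest ratio at equal depth among the 6 pairs of loops that were each other's nearest counterpart, 0.296 (0.140 to 0.583). The MCAO anchors of this loop were narrow, 8.88 kb at the gene against 46.4 kb in sham. Per kb of anchor and per 1000000 PETs, the authors' density was 0.0117 in MCAO and 0.00742 in sham, so the direction turned with anchor width.

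From the gene body, the loop to the same locus had 24 PETs in MCAO and 18 in sham. This was the sole loop found in both lists with more PETs per 1000000 in MCAO, a ratio of 1.15 (0.598 to 2.25). Its density was 0.00496 in MCAO and 0.00656 in sham, since the MCAO anchors were wider. The body anchor of this loop ran over 52314164 to 52376274 in MCAO, against 52293106 to 52332120 in sham. Both cover the start of Gm32597, a long noncoding RNA gene that lies inside Alcam on the opposite strand. Its promoter is shown as the annotated start at these anchors, at chr16:52331180-52331479 (plus strand, GRCm38.p6, RefSeq).
Gm32597 promoter: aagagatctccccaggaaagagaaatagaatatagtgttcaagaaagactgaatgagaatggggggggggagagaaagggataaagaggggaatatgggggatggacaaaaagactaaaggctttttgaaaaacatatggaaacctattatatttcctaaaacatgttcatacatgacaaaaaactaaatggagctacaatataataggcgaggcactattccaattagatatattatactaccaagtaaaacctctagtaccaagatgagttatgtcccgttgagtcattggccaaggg
Unlike the Alcam promoter it was 37.7% G and C, and none of the 3 motifs was found in it.

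At 2.55 Mb from the start, the locus at 54969423 to 55027977 was reached by 2 loops in each list, with 28 PETs in MCAO and 35 in sham. The start-end loop had 10 PETs in MCAO and 23 in sham, a ratio at equal depth of 0.375 (0.159 to 0.819). The second MCAO loop started from the body, as described above, and the second sham loop, with 12 PETs, from the 3′ end. The sum over the locus gave a ratio of 0.690. The nearest protein-coding gene is Zpld1, 196 kb away.

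Farther out, at 3.02 Mb, the locus at 55444036 to 55499456 had 1 loop with 17 PETs in MCAO and 2 loops with 66 PETs in sham, a ratio at equal depth of 0.222. The start-end loop had 17 PETs in MCAO and 39 in sham, with gene anchors 39.1 kb and 101 kb wide. The second sham loop, with 27 PETs, came from an anchor 2.22 kb below the 3′ end. Its MCAO counterpart had 14 PETs and an anchor ending 25.9 kb below the gene, outside the window, so this loop was not absent from MCAO. With it, the locus had 31 PETs in MCAO and 66 in sham, a ratio of 0.405. Zpld1, 122 kb away, is the nearest protein-coding gene, and the long noncoding RNA gene Gm45968 and the microRNA gene Mir5118 lie at the locus.

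On the 3′ side, the locus at 51281461 to 51376121 held the strongest loop of the gene in each list. This loop had 53 PETs in MCAO and 71 in sham, a ratio at equal depth of 0.644 (0.442 to 0.932). Only 1.59% of MCAO loops and 0.968% of sham loops had at least as many PETs. Its gene-side anchors were 143 kb wide in MCAO and 116 kb wide in sham, and both lay for the most part over Cblb and the DNA between Cblb and Alcam. The MCAO anchor ended 5.23 kb short of Alcam. A further MCAO loop with 10 PETs joined the same locus to the Alcam body at 52276947 to 52305707. Its counterpart by midpoints was the same sham loop with 71 PETs. The gene-side anchors of the 2 did not overlap, since that of sham ended at 52251639. With the body loop, the locus had 63 PETs in MCAO and 71 in sham, a ratio of 0.765.

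The loci reached in sham alone were of several kinds. At 52044409 to 52076029 the partner lay inside Cblb, with 11 PETs. The most distant, at 55838160 to 55863385 with 12 PETs, covered the facing ends of Nfkbiz, which encodes an inducible nuclear regulator of NF-kappa B target genes, and Nxpe3, a gene of the neurexophilin and PC-esterase domain family. The strongest of them, at 53018366 to 53072035, had 23 PETs. Its gene-side anchor began 0.320 kb beyond the Alcam start, so it did not cover the promoter shown above. The others, at 0.442, 0.539, 1.32 and 1.95 Mb from the start, had 10 to 12 PETs.

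Within the gene, the body was joined to the start in both lists. In MCAO the anchors lay at 52303836 to 52322910 and at 52445385 to 52456943. In sham they lay at 52299269 to 52321808 and at 52443455 to 52456630. This loop, 138 kb long in MCAO and 140 kb in sham, had 16 PETs in MCAO and 21 in sham, 0.657 (0.321 to 1.32) at equal depth. MCAO had a second loop of this kind, 115 kb long and with 10 PETs, from 52333206 to 52345925, without a counterpart in sham. By the rule for counterparts given next, it was the sole MCAO loop of the gene without one.

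A loop had a counterpart when the other list held a loop whose 2 midpoints were each displaced by no more than 1 anchor width, the wider anchor counting. It was found for 8 of 9 Alcam loops in MCAO, 88.9%, and for 7 of 15 in sham, 46.7%. Over the lists the shares were 24.9% in MCAO and 25.6% in sham. Some MCAO loops of the gene shared a sham counterpart and many loops shared the start, so they are not separate and no interval is given. The gene was chosen for more loops in sham, and the part of this in the MCAO share was not tested. Where both anchors had to overlap, 7 of 9 Alcam loops in MCAO and 7 of 15 in sham had a counterpart. Wide anchors make a counterpart easier to find, and the median gene-side anchor was 36.5 kb in MCAO and 39.0 kb in sham, against 20.7 kb and 24.8 kb for anchors of all loops. The part of anchor width in this share was not tested. Among the outward loops of the start end, 3 of 3 in MCAO and 3 of 10 in sham had a counterpart.

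**Figure D3:**
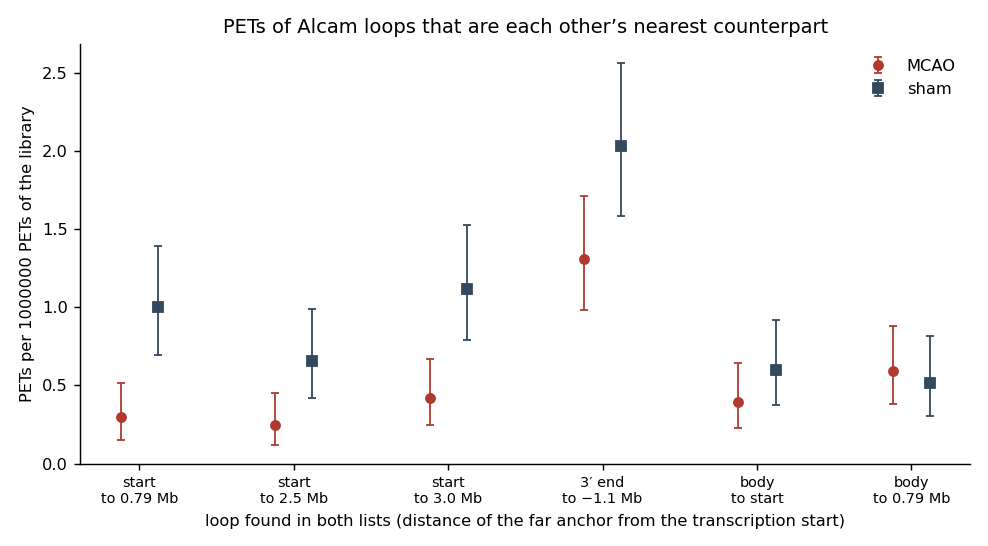
PETs per 1000000 PETs of the library for the 6 Alcam loops that were each other's nearest counterpart, with MCAO (circles) left of sham (squares). Bars are 95% Poisson intervals for counting error, and 5 of the 6 loops lie lower in MCAO.

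Pairs that were each other's nearest counterpart numbered 6 at Alcam. PETs per 1000000 were lower in MCAO in 5 of them, against 59.1% of 3554 such pairs over the lists. The median ratio was 0.492 at Alcam and 0.862 over the lists. Reads at the anchors moved the same way. Reads per kb of anchor per 1000000 PETs were lower in MCAO at 11 of the 12 anchors of these pairs, against 56.1% of 7108 anchors over the lists. Several of these anchors overlap each other, mostly at the transcription start, so neither the pairs nor the 12 anchors are separate sites. The gene was also chosen for fewer loops in MCAO, so these counts are a description. The median ratio of read density was 0.796 at Alcam and 0.969 over the anchors of all pairs. Among the 3 anchors whose widths differed by at most 1.2 times the median ratio was 0.845, against 0.958 over 1621 such anchors of all pairs. At the narrow start anchor of the loop inside the gene, the read density was 1.12 in MCAO and 1.33 in sham. The anchor that went the other way also lies at the start, in the loop to the locus at 0.792 Mb. It had 1.23 in MCAO and 0.853 in sham, with widths of 8.88 kb and 46.4 kb. The part of read coverage in the loop difference was not tested.

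Loops between the partner loci themselves did not all share the gap. The loci at 2.55 and 3.02 Mb were joined to each other by a loop with 33 PETs in MCAO and 26 in sham, 1.09 (0.635 to 1.91) at equal depth. MCAO had 3 more loops between partner loci, with 10 to 14 PETs, and sham had 1 more, with 19 PETs, from the locus at 3.02 Mb to the one at Nfkbiz and Nxpe3. None of these 4 had a counterpart. Cblb, next to the 3′ end, had 9 loops with 208 PETs in MCAO and 6 loops with 142 PETs in sham. Of these loops, 1 in MCAO and 3 in sham were also loops of Alcam, so their PETs count at both genes. A Cblb anchor ending 20.6 kb below Alcam carried a loop with 54 PETs in MCAO, whose counterpart in sham had 10.

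**Figure D4:**
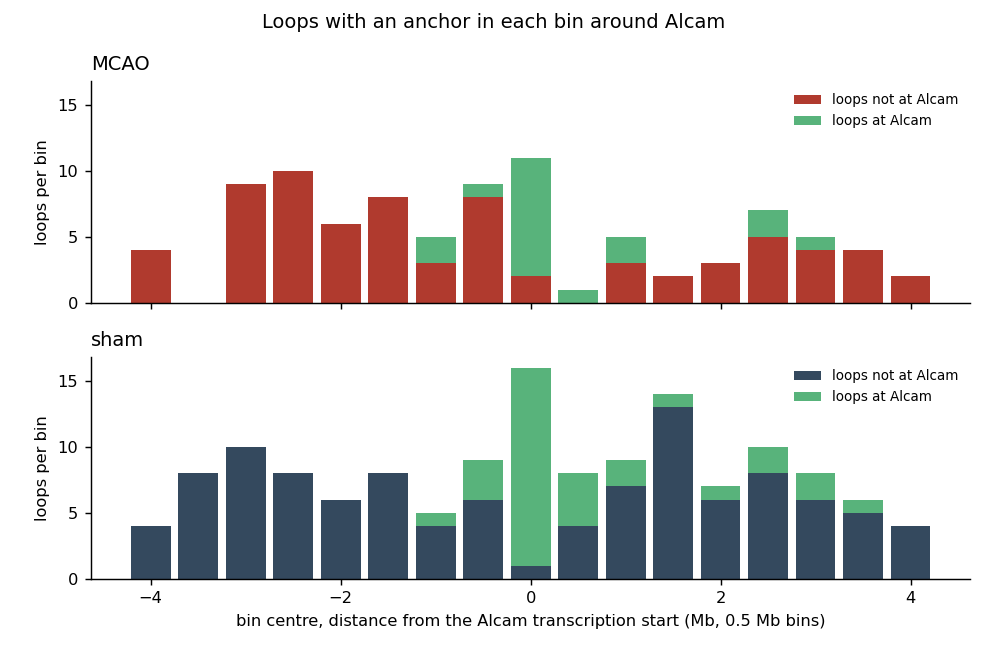
Loops with an anchor in each bin of 0.5 Mb around the Alcam transcription start, in MCAO (top) and sham (bottom), with loops at Alcam in green. In the bin at 1.5 Mb there were 2 loops in MCAO and 14 in sham, while the bins from -2.5 to -0.5 Mb held 5 to 10 in MCAO and 5 to 9 in sham. Farther out on that side, the bin at -3.5 Mb held 0 in MCAO and 8 in sham.

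The desert beyond the start had fewer loops in MCAO also where Alcam was not involved. With all Alcam loops left out, and both anchors between the 10 kb window of the gene and Zpld1, 5 loops with 69 PETs were listed in MCAO and 20 with 258 PETs in sham, a ratio of loop numbers of 0.250. This stretch was chosen after its values were seen. Zpld1 itself had 0 loops in MCAO and 3 in sham. Within 3 Mb of the gene on either side, loops not at Alcam numbered 33 in MCAO and 52 in sham, a ratio of 0.635, and held 541 PETs in MCAO and 698 in sham, 0.668 at equal depth. Within 5 Mb they numbered 51 in MCAO and 87 in sham, a ratio of 0.586. Within 1 Mb they numbered 10 in MCAO and 14 in sham, with 208 PETs in MCAO and 174 in sham, 1.03 at equal depth. The MCAO sum includes the Cblb loop with 54 PETs described above, whose counterpart in sham had 10. Over chromosome 16, loops not at Alcam numbered 612 in MCAO and 639 in sham, 0.958 (0.856 to 1.07). Of the 7 protein-coding neighbours within 3 Mb, 3 had more loops in MCAO, 1 had fewer and 3 had equal numbers. On the Cblb side, the ciliary transport gene Ift57 and the transcription factor gene Bbx each had 5 loops in MCAO and 4 in sham. Cd47, whose protein signals against engulfment, had 3 in each list, Gm4802 had 1 in each and Ccdc54 had none in either.

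Large differences were frequent among genes with many loops. Of 78 genes with 20 to 28 loops in both lists together, 21.8% had a difference of -6 or lower, and the range was -17 to 11. Over all genes with a loop, 32.9% had fewer loops in MCAO, 47.3% had more and 19.8% had equal numbers.

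**Figure D5:**
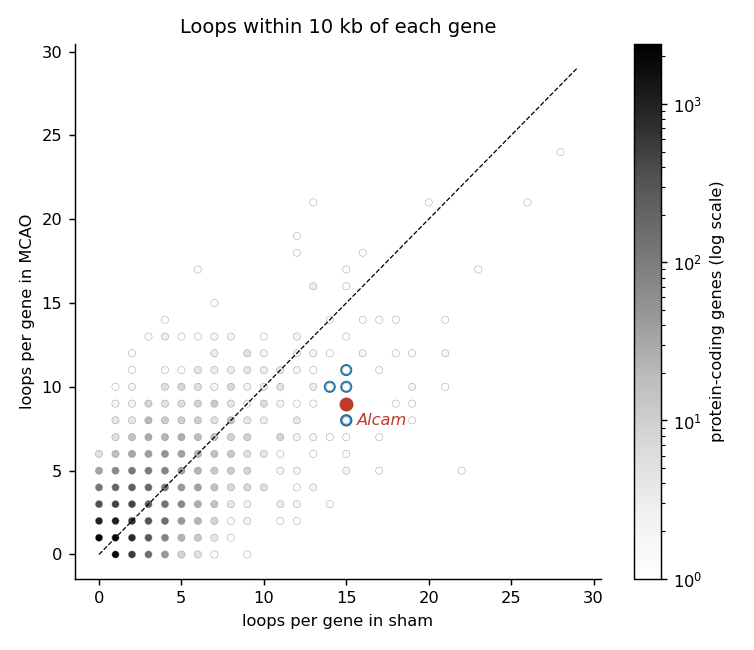
Loops within 10 kb of each protein-coding gene in sham (x axis) and MCAO (y axis), shaded by the number of genes on a log scale, with equal numbers as a dashed line. Alcam (red) lies at 9 loops in MCAO and 15 in sham, next to the 5 genes nearest to it (blue rings).

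The genes with loop numbers closest to Alcam, by the distance of the pair of numbers over the 2 libraries, were long genes. Ctnna2, which encodes a neuronal alpha catenin, had 10 loops in MCAO and 15 in sham. Nrg3, a neuregulin gene, and Robo2, an axon guidance receptor gene that also lies on chromosome 16, each had 8 in MCAO and 15 in sham. Sugct, a metabolic enzyme gene, had 10 in MCAO and 14 in sham, and the transcription factor gene Tcf4 had 11 in MCAO and 15 in sham. Their lengths ran from 345 to 1555 kb, all above the 204 kb of Alcam. Numbers of PETs were less alike, with 212 in MCAO and 220 in sham at Ctnna2 and 94 in MCAO and 209 in sham at Robo2.

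Among other adhesion genes of the immunoglobulin superfamily no common direction was seen. Of 51 such genes, 45 had a loop, and 20 had more loops in MCAO, 16 fewer and 9 equal numbers, against 47.3%, 32.9% and 19.8% of all genes with a loop. The median difference was 0, as over all genes with a loop. Together these genes had 240 gene-loop pairs in MCAO and 238 in sham. The 3 with the most loops all encode membrane-anchored neuronal adhesion proteins of the IgLON family. Lsamp had 21 in MCAO and 26 in sham, Ntm had 16 in MCAO and 15 in sham, and Negr1 had 11 in MCAO and 17 in sham. The neural cell adhesion genes differed from each other, with 13 loops in MCAO and 4 in sham at Ncam1 and 6 in MCAO and 15 in sham at Ncam2. Sdk2, which guides synaptic layers in the retina, had 13 in MCAO and 4 in sham, and Dscaml1, a gene of neuronal self-avoidance, had 6 in MCAO and 2 in sham. The synaptic adhesion gene Cadm2 had 3 in MCAO and 12 in sham. A difference of -6 or lower was seen at 3 of the 45, which are Cadm2, Ncam2 and Negr1, against 0.415% of all genes with a loop. Ncam2 and Negr1 were among the genes with 20 to 28 loops in both lists together, of which 21.8% had such a difference.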

How the data were processed

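Per the labels' protocols, Hi-C of frozen cortex used an Arima kit. Per the submitters' processing notes, HiC-Pro and Bowtie2 were used with mm10. Neither their versions nor the loop caller is stated in those sources. The authors deposited PETs per loop and reads per anchor as whole-number counts without depth scaling, in 1 list per group, with at least 10 PETs per loop. Their density is a deposited signal per kb of both anchors per 1000000 PETs. This was checked on each loop and gave the library totals, by which ratios at equal depth were scaled. The enrichment ratio was deposited without a definition and was not used. The deposited p-values of the authors served only to divide a list in an alternative.

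The members and lists were chosen with earlier results of these data known. Gene positions and promoters came from RefSeq tables on GRCm38.p6 (mm10). They held 21887 protein-coding genes, 17492 of them with a strand. An anchor within 10 kb of a gene end belonged to that end, and any other anchor in the gene to the body. Partner anchors that overlapped were merged into loci. Genes named were those within 10 kb of partner anchors or nearest to them, protein-coding neighbours within 3 Mb, the 5 genes most like Alcam, and, of the adhesion list, the 3 with the most loops and the 3 with the largest difference in each direction. Intervals are exact Poisson or Clopper-Pearson intervals at 95%, PETs may repeat a molecule, and no test between conditions was made with 1 library per group. Matching was tested on simulated data made by moving the loops of the sham list. Gene counts were checked by a separate recount on the sham list, and anchor places on set coordinates. Python 3.11.15, numpy 2.4.6, pandas 2.3.3, scipy 1.17.1 and matplotlib 3.10.9 were used. Alternatives covered the window, the minimum of PETs, the better part of each list by hypergeometric p-value, the counterpart rule and the scaling.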

Additional observations from a re-analysis of the deposited data

How the results depend on the processing

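No result at Alcam changed direction in any of 33 combinations of result and setting, and 20 stayed within 1.5 times the reported number or within the interval of the PET ratio. A single library per group left no replicate to leave out, and no paired analysis was possible because each group had a single list. A minimum of 15 PETs left differences, MCAO minus sham, of -3 over the gene, -3 at the start end, -1 at the 3′ end and 1 in the body. In the part of each list with the better authors' hypergeometric p-value they were -1 over the gene, -2 at the start end, 0 at the 3′ end and 1 in the body, with 3 MCAO loops and 4 sham loops left in all. With a window of 25 kb the 3′ end had a difference of -1. With a minimum matched for depth, 12 PETs in MCAO and 10 in sham, the body had a difference of 1, and over the gene the difference was -9. With midpoints within 25 kb, or within 0.5 anchor widths, 5 of 9 MCAO loops had a counterpart. These settings keep fewer loops, widen the ends or ask for a stricter match, and the part of this in the smaller numbers was not tested. The ratio of PETs at equal depth was 0.430 with at least 15 PETs and the unscaled ratio was 0.506. With the sham loops that MCAO does not list set to 9 PETs there, it was 0.657. No 2 loops overlapped at both anchors, so merging such loops had nothing to act on and is not counted. The minimum of 15 PETs and the 9 PETs for this ratio were chosen after seeing the data, as were, for the ends and body, the window of 0 kb, the minimum matched for depth and the division by p-value.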
